A study of Homo sapiens with 6 samples.

Results

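Small nucleolar RNA (snoRNA) host genes and growth-linked noncoding RNAs were followed at the level of total gene counts in 22Rv1 cells after knockdown of ZMYND11, a chromatin reader of histone H3.3 trimethylated on lysine 36. The group was chosen by gene name, with earlier results of these data known, as GAS5, SNHG1, SNHG5, SNHG6, SNHG8, SNHG12, SNHG15, SNHG16, ZFAS1 and EPB41L4A-AS1. Of these 10 genes, 9 had a row among the 35322 gene symbols of the count matrix, and all 9 passed the filter on low counts that left 16510 genes for testing, 988 of them annotated as long noncoding RNAs. No row carried the symbol EPB41L4A-AS1 or an older symbol of that gene, so it was not analysed here. 22Rv1 is an established human prostate carcinoma line. The 6 libraries came from control cells with the genotype given as WT and from ZMYND11 knockdown cells named ZM11-kd1 and ZM11-kd2, with 2 libraries in each of the 3 groups and no treatment in any of them. The study describes its sequenced 22Rv1 cells as stably expressing control or ZMYND11-targeting short hairpin RNAs, while the labels call the control cells WT, and the hairpin behind each knockdown name was not stated. Nothing stated that the 2 libraries of a group came from separate cultures, so each p-value measures only the spread between these libraries, which may be technical.

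Most of these genes are unusual in that the spliced exons are the by-product and the introns carry the functional product. Their introns hold snoRNAs, the guides that direct ribose methylation (box C/D class) or pseudouridylation (box H/ACA class) of ribosomal RNA, and the spliced host RNA is exported, loaded with ribosomes and degraded by nonsense-mediated decay. Many hosts begin with a terminal oligopyrimidine (TOP) tract, a C followed by a run of C and T, as messenger RNAs of ribosomal proteins do, and the translation of such RNAs follows the growth-regulating kinase mTOR. GAS5 took its name from its accumulation in growth-arrested cells.

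The first 30 bases from the commonest annotated transcript start of 5 of the 6 genes with such a start are shown because they carry the TOP tract, set in capitals (GENCODE 44 transcripts, GRCh38/hg38, 5′ to 3′ on the transcribed strand). A start was counted as TOP when the first base was C and the first 5 bases were all C or T, and the capitals mark the whole unbroken run of C and T.
GAS5, chr1:173867960-173867989, minus strand: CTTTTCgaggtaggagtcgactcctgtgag
SNHG8, chr4:118278758-118278787, plus strand: CTTTCacattcgggaagcgtcgggattagg
SNHG12, chr1:28581844-28581873, minus strand: CCTTTCTCCCCgccgcattcccggtgtcga
ZFAS1, chr20:49278642-49278671, plus strand: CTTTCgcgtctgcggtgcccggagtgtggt
EPB41L4A-AS1, chr5:112160864-112160893, plus strand: CCTTTCTTCCTTTTggtgcgagcttgctgt
In SNHG5 and SNHG16 the commonest annotated start was not of this type, and a TOP start with fewer transcripts lay 15 and 3 bases downstream of it, respectively.
SNHG5, chr6:85678704-85678733, minus strand: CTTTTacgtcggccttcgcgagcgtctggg
SNHG16, chr17:76557769-76557798, plus strand: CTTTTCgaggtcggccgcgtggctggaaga
The pyrimidine run was longest in EPB41L4A-AS1, at 14 bases, and next longest in SNHG12, at 11 bases. The sequence of SNHG6, the remaining gene with a TOP start (a run of 7 bases), is not shown. GAS5 and SNHG16 shared their first 11 bases, and these were the 2 genes of the matrix with an annotated transcript that began with them.

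TOP starts made up 54.9% of the 91 annotated GAS5 transcripts, 62.5% of the 8 of SNHG6, 33.3% of the 15 of SNHG8, 31.6% of the 19 of SNHG12, 42.9% of the 14 of ZFAS1 and 55.6% of the 9 of EPB41L4A-AS1. In SNHG16 the share was 16.7% of 18 transcripts, in SNHG5 3.37% of 89, in SNHG1 1.25% of 80, and in SNHG15 no annotated transcript of 14 started in this way. Across all annotated transcripts of genes in the matrix the share was 2.69% (5470 of 203280), and across transcripts of long noncoding RNAs it was 3.12%. These are annotated starts, and the starts used in these cells were not measured. The canonical E-box CACGTG is the recognition sequence of MYC and related factors and reads the same on both strands. It was present in none of the 8 RefSeq promoter windows found for these genes, against 7.26% of 35116 windows of the same length. SNHG6 and SNHG15 had no window, and EPB41L4A-AS1 was among the 8. With only 8 windows, finding none does not set these genes apart from that share.

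In control cells the 9 genes covered a wide range of levels. On the scale of CPM (counts scaled to a common library size with TMM factors, not divided by length), GAS5 lay at the 98.7th percentile of the genes tested, SNHG1 at the 93.6th and SNHG8 at the 90.2nd. SNHG15, SNHG6, SNHG12 and SNHG16 followed between the 77.8th and the 60.4th percentile, ZFAS1 lay at the 41.4th and SNHG5 at the 25.5th. GAS5 supplied between 46.7% and 50.5% of the summed CPM of the 9 genes in every library. Per kilobase of median annotated transcript length, the control level was 552 CPM for GAS5, 233 for SNHG8, 115 for SNHG1, 91.8 for SNHG6 and 2.37 for SNHG5. GAS5 was highest and SNHG5 lowest under either length used, but the order between them depended on it. With the length of the canonical transcript SNHG8 stood at 18.5 CPM per kilobase and SNHG16 moved from 12.0 to 59.1.

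The libraries held 26844128 to 38193748 counts each, both control libraries being the shallowest. ZMYND11 itself was at 138 ± 4.38 CPM in control, 26.9 ± 1.12 in ZM11-kd1 and 22.1 ± 0.841 in ZM11-kd2 (SD, n = 2), 5.11-fold and 6.22-fold lower than control. All 10 prostate epithelial markers were detected in every group, with a summed level of 2803 to 2807 CPM in control, 3037 to 3067 in ZM11-kd1 and 3686 to 3693 in ZM11-kd2. The 7 fibroblast markers summed to 33.3 to 36.4 CPM in control, 86.8 to 87.2 in ZM11-kd1 and 44.5 to 44.9 in ZM11-kd2, and COL1A1 alone supplied 23.9, 74.5 and 31.2 CPM of these on average, with 2 of the 6 markers tested higher and 1 lower in ZM11-kd1. The 7 leukocyte markers stayed at or below 4.11 CPM in sum, and the 4 endothelial markers at or below 0.196 CPM. Among 6 RNAs without a poly(A) tail, RN7SL1 was at 8.44 to 9.73 CPM in control, 29.8 to 33.1 in ZM11-kd1 and 11.6 to 15.3 in ZM11-kd2, and the other 5 were listed at 0 throughout. The part of these differences in the results that follow was not tested.

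The first question was whether the host RNAs differed from control after each knockdown. Both comparisons use the same 2 control libraries. In ZM11-kd1, 5 of the 9 genes fell (SNHG1, SNHG6, SNHG12, SNHG15 and SNHG16), 2 rose (SNHG8 and ZFAS1) and 2 did not pass the test (GAS5 and SNHG5), at an adjusted p under 0.05 in edgeR's quasi-likelihood test with Benjamini-Hochberg adjustment over all genes. In that comparison 78.0% of all genes tested passed, 38.2% as higher and 39.8% as lower. In ZM11-kd2, 7 of the 9 fell (GAS5, SNHG1, SNHG6, SNHG8, SNHG12, SNHG16 and ZFAS1), none rose and 2 did not pass (SNHG5 and SNHG15), against a background of 73.4% passing, 36.5% as higher and 36.9% as lower. The share of genes that passed in either direction, 7 of 9 in each knockdown, was therefore close to that of all genes. The median log2 fold change of the 9 was -0.43 in ZM11-kd1 and -0.72 in ZM11-kd2, while the median over all genes tested was -0.03 in both. Across 16080 genes, which are not independent replicates, the log2 fold change had a Spearman correlation of -0.320 with canonical transcript length and 0.191 with GC content in ZM11-kd1, and of -0.119 and -0.033 in ZM11-kd2. The median canonical length was 1821 bases for the 9 genes and 3105 for all genes, and the part of length in the group's median was not tested. With library totals alone in place of the TMM factors, the median over all genes moved to -0.38 in ZM11-kd1 and -0.20 in ZM11-kd2, and the share of calls that were higher moved from 49% to 35.3% in ZM11-kd1. The summed level of the 9 was 839 and 862 CPM in control, 763 and 809 in ZM11-kd1 and 650.4 and 568 in ZM11-kd2. In bulk libraries, fewer cells of a type and less RNA per cell cannot be told apart.

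**Figure D1:**
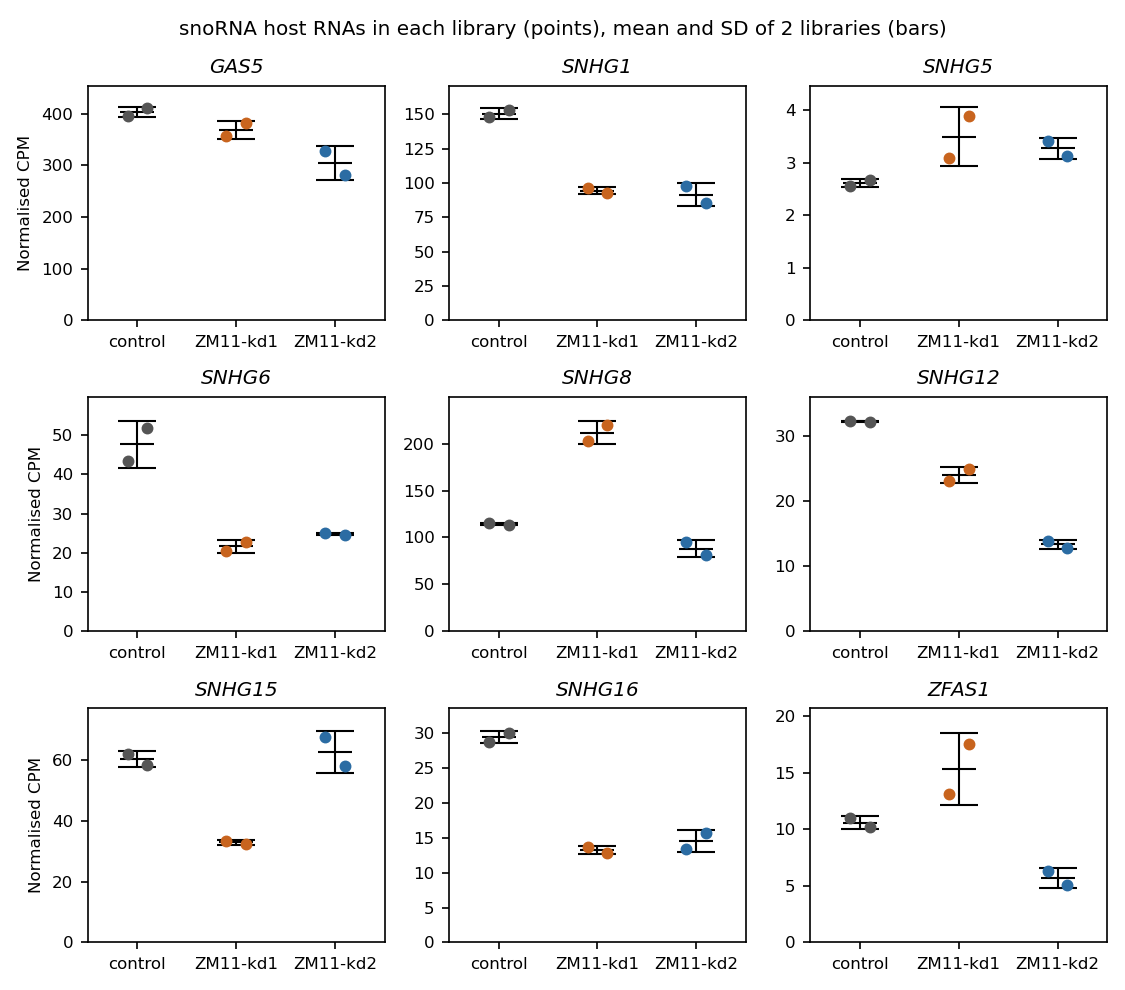
Level of each host RNA in every library (normalised CPM, linear axis from 0, a panel per gene), with 1 point per library in control, ZM11-kd1 and ZM11-kd2 and bars for the mean and SD of 2 libraries. SNHG1, SNHG6, SNHG12 and SNHG16 lay below both control libraries in all 4 knockdown libraries, and SNHG8 and ZFAS1 lay above control in ZM11-kd1 and below it in ZM11-kd2.

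The box C/D hosts SNHG1, SNHG6 and SNHG16 fell in both knockdowns. SNHG1, which hosts the box C/D snoRNAs SNORD22, SNORD25, SNORD26, SNORD27, SNORD28 and SNORD30 and lies beside SLC3A2, was at 148 and 153 CPM in control, 96.4 and 92.5 in ZM11-kd1 and 97.5 and 85.5 in ZM11-kd2. The 4 knockdown libraries all lay below both control libraries and overlapped each other. Its log2 fold change was -0.67 ± 0.065 (SE, adjusted p = 2.13e-07) in ZM11-kd1 and -0.72 ± 0.065 (adjusted p = 1.39e-07) in ZM11-kd2. With library totals alone in place of the TMM factors, the value in ZM11-kd1 was -1.03, as it was with a correction for GC content and canonical transcript length.

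SNHG6, the host of SNORD87, was at 43.5 and 51.9 CPM in control, 20.6 and 22.9 in ZM11-kd1 and 25.0 and 24.6 in ZM11-kd2. It was 2.20-fold lower in ZM11-kd1 (log2 fold change -1.13 ± 0.093, adjusted p = 3.51e-08) and 1.92-fold lower in ZM11-kd2 (-0.94 ± 0.091, adjusted p = 3.11e-07). SNHG16, which hosts SNORD1A, SNORD1B and SNORD1C, was at 28.8 and 30.01 CPM in control, 13.7 and 12.8 in ZM11-kd1 and 13.4 and 15.6 in ZM11-kd2. Its log2 fold change was -1.15 ± 0.099 (adjusted p = 6.03e-08) in ZM11-kd1 and -1.02 ± 0.097 (adjusted p = 2.58e-07) in ZM11-kd2. Neither gene had a knockdown library within the control range.

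GAS5, a box C/D host whose RNA also binds the glucocorticoid receptor, was at 396 and 410.1 CPM in control, 356 and 381 in ZM11-kd1 and 329 and 282 in ZM11-kd2. All 4 knockdown libraries lay below control, and both ZM11-kd2 libraries lay below both ZM11-kd1 libraries. The difference passed the test in ZM11-kd2 (log2 fold change -0.40 ± 0.067, adjusted p = 8.3e-05) and not in ZM11-kd1 (-0.13 ± 0.067, adjusted p = 0.0932). The ZM11-kd1 value depended on the scaling: it was -0.48 (adjusted p = 2.43e-06) with library totals alone, under which the median of all genes was -0.38, and -0.58 (adjusted p = 3.9e-10) with a correction for GC content and canonical transcript length but -0.13 (adjusted p = 0.0731) when the median transcript length was used. It also passed without a filter on low counts (-0.13, adjusted p = 0.0306), with at least 10 counts required in every library (-0.17, adjusted p = 0.0312), in the fit of only the groups compared (-0.13, adjusted p = 0.00228), and without ZM11-kd2 replicate 1 (-0.12, adjusted p = 0.0031) or replicate 2 (-0.13, adjusted p = 0.00281). Without ZM11-kd1 replicate 1 it was -0.08 (adjusted p = 0.45).

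ZFAS1, the host of SNORD12, SNORD12B and SNORD12C, moved in opposite directions in the 2 knockdowns. It was at 11.0 and 10.2 CPM in control, 13.1 and 17.6 in ZM11-kd1 and 6.33 and 5.05 in ZM11-kd2, with no overlap between the 3 groups. Its log2 fold change was 0.53 ± 0.15 (adjusted p = 0.00438) in ZM11-kd1 and -0.89 ± 0.16 (adjusted p = 0.000159) in ZM11-kd2. The rise in ZM11-kd1 no longer passed with library totals alone (0.18, adjusted p = 0.275) or without ZM11-kd1 replicate 2 (0.31, adjusted p = 0.0942), and was 0.97 with the correction for GC content and canonical length.

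SNHG5, the host of SNORD50B, was the least abundant, with 78 to 122 counts per library. It was at 2.56 and 2.67 CPM in control, 3.09 and 3.88 in ZM11-kd1 and 3.41 and 3.12 in ZM11-kd2. Every knockdown library lay above control, but neither difference passed the test (log2 fold change 0.41 ± 0.21, adjusted p = 0.0843, and 0.32 ± 0.21, adjusted p = 0.173). The ZM11-kd1 value was 0.05 (adjusted p = 0.82) with library totals alone, 0.10 (adjusted p = 0.676) with the correction for GC content and canonical length and 0.24 (adjusted p = 0.394) without ZM11-kd1 replicate 2, and it passed without ZM11-kd1 replicate 1 (0.57, adjusted p = 0.0474). In ZM11-kd2 it was 0.15 (adjusted p = 0.519) with library totals alone.

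The hosts of box H/ACA snoRNAs SNHG8, SNHG12 and SNHG15 differed in pattern from each other. SNHG8, the host of SNORA24, was at 115 and 113 CPM in control, 203 and 220.3 in ZM11-kd1 and 94.9 and 81.6 in ZM11-kd2, again without overlap between the groups. It was 1.86-fold higher in ZM11-kd1 (log2 fold change 0.89 ± 0.069, adjusted p = 1.78e-08) and 1.29-fold lower in ZM11-kd2 (-0.37 ± 0.070, adjusted p = 0.000258). The size of the rise varied between 0.54 with library totals alone and 1.54 with the correction for GC content and canonical length, passing the test in each.

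SNHG12, which hosts SNORA16A, SNORA44, SNORA61 and the box C/D RNA SNORD99, was at 32.3 and 32.2 CPM in control, 23.1 and 24.9 in ZM11-kd1 and 13.9 and 12.8 in ZM11-kd2. The fall was -0.43 ± 0.083 (log2 fold change, adjusted p = 0.000288) in ZM11-kd1 and -1.27 ± 0.087 (adjusted p = 6.85e-09), or 2.41-fold, in ZM11-kd2. The ZM11-kd1 value was larger with library totals alone (-0.78) and with the corrections for GC content and canonical or median length (-0.82 and -0.66).

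SNHG15, the host of SNORA9, was at 62.1 and 58.3 CPM in control, 33.4 and 32.4 in ZM11-kd1 and 67.5 and 57.9 in ZM11-kd2. It was 1.83-fold lower in ZM11-kd1 (log2 fold change -0.87 ± 0.079, adjusted p = 1.15e-07), while the ZM11-kd2 libraries overlapped the control libraries (0.06 ± 0.076, adjusted p = 0.497). Without ZM11-kd2 replicate 2 the ZM11-kd2 value was 0.17 and passed the test (adjusted p = 0.0242), and with library totals alone it was -0.11. SNHG15 was the single gene of the 9 whose libraries overlapped between a knockdown and control. The share of all genes tested without such overlap is not given here. Lack of overlap was not the same as passing the test, which GAS5 in ZM11-kd1 and SNHG5 in both knockdowns did not.

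**Figure D2:**
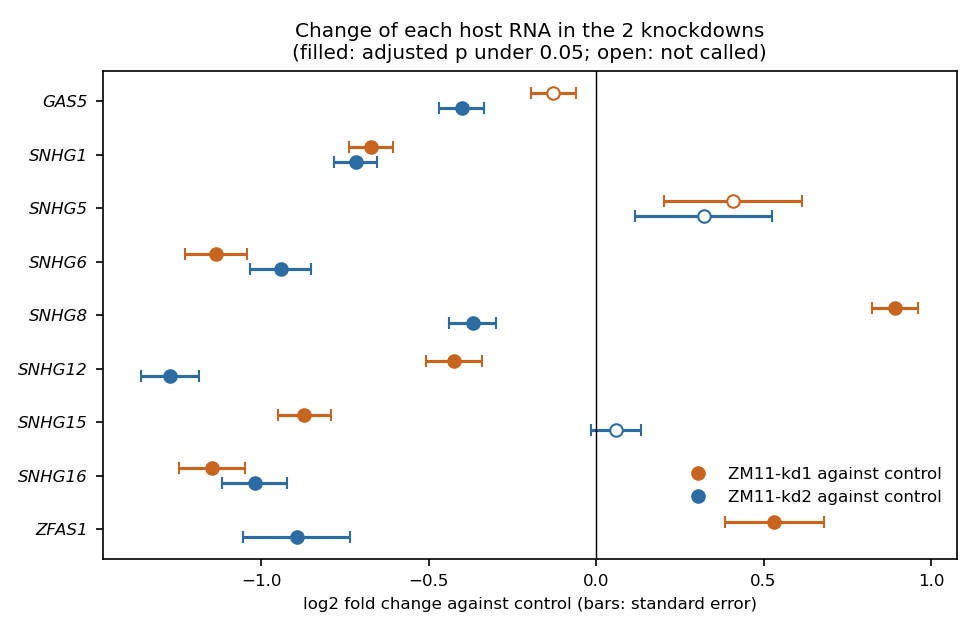
Log2 fold change against control (horizontal axis) of each host RNA in ZM11-kd1 and ZM11-kd2, with bars of 1 standard error; filled points passed the test at an adjusted p under 0.05 and open points did not. SNHG8 and ZFAS1 lie on opposite sides of 0 in the 2 knockdowns, at 0.89 and -0.37 and at 0.53 and -0.89.

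The second question was whether the knockdowns differed from each other, tested directly in the same fit. Of the 9 genes, 4 were lower in ZM11-kd2 than in ZM11-kd1 (GAS5, SNHG8, SNHG12 and ZFAS1), 1 was higher (SNHG15) and 4 did not pass the test. Of all genes tested 68.8% passed in that comparison, 34.9% as higher and 33.8% as lower. The share of calls that were higher moved from 50.8% to 61.1% under library totals alone, where the median over all genes was 0.21 and 3 of the 9 genes were called higher. ZFAS1 had a log2 difference of -1.43 ± 0.16 (adjusted p = 1.35e-06) and SNHG8 one of -1.26 ± 0.070 (adjusted p = 1.09e-09). SNHG15 was 1.91-fold higher in ZM11-kd2 than in ZM11-kd1 (0.93 ± 0.079, adjusted p = 9.17e-08), and SNHG12 was 1.80-fold lower (-0.85 ± 0.088, adjusted p = 8.08e-07). GAS5 differed by -0.27 ± 0.067 (adjusted p = 0.00229), a difference that no longer passed with library totals alone (-0.09, adjusted p = 0.194), had the opposite sign with the correction for GC content and canonical length (0.08), and was -0.16 (adjusted p = 0.00296) without ZM11-kd2 replicate 2. SNHG1, SNHG5, SNHG6 and SNHG16 had log2 differences of -0.05, -0.09, 0.19 and 0.13 with adjusted p of 0.546, 0.708, 0.0887 and 0.282. Leaving out 1 library, SNHG16 ranged from 0.016 (without ZM11-kd2 replicate 2) to 0.23 (without ZM11-kd2 replicate 1) and SNHG6 from 0.12 (without ZM11-kd1 replicate 1) to 0.27 (without ZM11-kd1 replicate 2), passing in none of these fits. SNHG6 (0.38, adjusted p = 0.0024) and SNHG16 (0.31, adjusted p = 0.0178) passed as higher with library totals alone. With the correction for GC content and canonical length SNHG16 (0.56, adjusted p = 0.000174) and SNHG1 (0.19, adjusted p = 0.00215) passed as higher and SNHG12 was at -0.53, and without ZM11-kd2 replicate 1 SNHG1 passed as lower (-0.15, adjusted p = 0.0154).

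The genes were also described by the way their RNA begins. Of the 5 measured genes whose commonest annotated start was TOP (GAS5, SNHG6, SNHG8, SNHG12 and ZFAS1), 2 rose, 2 fell and 1 did not pass in ZM11-kd1, and all 5 fell in ZM11-kd2. Over all genes tested, 38.2% were called higher and 39.8% lower in ZM11-kd1 and 36.5% and 36.9% in ZM11-kd2. Of the other 4 (SNHG1, SNHG5, SNHG15 and SNHG16), 3 fell and 1 did not pass in ZM11-kd1, and 2 fell and 2 did not pass in ZM11-kd2. GAS5 and SNHG16, with the same first 11 bases at their TOP starts shown above, differed in size of change in ZM11-kd1, at -0.13 and -1.15. These are counts of few genes, and no test between the kinds of start was made. The commonest start was shared by 50 of 91 annotated transcripts of GAS5, but by few in the other TOP genes. It held 3 of 8 for SNHG6, 5 of 15 for SNHG8, 4 of 19 for SNHG12 and 5 of 14 for ZFAS1. SNHG16 had 5 transcripts at its commonest start and 3 at its TOP start, so the split is uncertain.

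On GRCh38, GAS5 lies at chr1:173858559-173868882, SNHG1 at chr11:62851978-62855953, SNHG5 at chr6:85650491-85678932, SNHG6 at chr8:66920561-66926398, SNHG12 at chr1:28578538-28583132 and SNHG15 at chr7:44983019-44986961, all on the minus strand. SNHG8 at chr4:118278703-118285316, SNHG16 at chr17:76557727-76670985 and ZFAS1 at chr20:49278178-49299600 are on the plus strand. Among the 9 genes, 4 start within 1 kb of a gene transcribed in the other direction. Distances here and in the next paragraph run between the outermost annotated starts of the genes, not between the commonest transcript starts given above. ZFAS1 starts 248 bases from ZNFX1, which encodes a helicase-like zinc finger protein of RNA-based antiviral defence, and the 2 genes share 249 exon bases on opposite strands. ZNFX1 was at 34.5 ± 2.31 CPM in control, 16.8 ± 0.365 in ZM11-kd1 and 51.4 ± 2.24 in ZM11-kd2 (SD, n = 2). Its log2 fold changes of -1.03 (adjusted p = 2.22e-08) and 0.57 (adjusted p = 7.1e-06) were opposite in sign to those of ZFAS1 in each knockdown.

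The outermost annotated start of GAS5 lies 800 bases from that of ZBTB37 and inside that gene, which begins at chr1:173868082. The commonest GAS5 start, at chr1:173867989, lies outside it. ZBTB37, a zinc finger gene, was at 104 CPM in control, 29.0 in ZM11-kd1 and 27.7 in ZM11-kd2 (log2 fold change -1.84, adjusted p = 1.48e-11, and -1.91, adjusted p = 1.82e-11). GAS5 itself had log2 fold changes of -0.13, which did not pass the test, and -0.40 in the same comparisons. SNHG1 starts 51 bases from SLC3A2, the heavy chain of amino acid transporters such as that formed with SLC7A5, and fell in both knockdowns. SLC3A2 rose from 1435 to 1951 CPM in ZM11-kd1 (0.44, adjusted p = 4.89e-06) and was at 1520 CPM in ZM11-kd2 (0.08, adjusted p = 0.203). The opposite neighbour of SNHG16, ENSG00000267546, had no row in the matrix. The values describe pairs of neighbouring genes, and no test of a link between them was made.

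Whether the counting used strand was not given in the sources used here, so genes whose exons overlap on opposite strands are uncertain. SNHG8 shares 2487 exon bases with PRSS12, which had at most 65 counts in a library against at least 2795 for SNHG8. SNHG6 shares 1488 exon bases with MCMDC2, which fell in both knockdowns (log2 fold change -1.64 and -1.37) from 6.28 CPM in control. SNHG12 shares 8 exon bases with TRNAU1AP. SNHG5 shares 943 exon bases on the same strand with ENSG00000271793, which had no row. None of the 9 genes had the same counts in all libraries as another gene.

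The snoRNAs themselves were hardly represented in these counts. The annotation placed 21 snoRNA symbols with a row in the matrix inside the host genes, EPB41L4A-AS1 included, and 17 of them were at 0 in all 6 libraries. The highest were SNORD99 inside SNHG12, with 49 counts over all libraries, and SNORA13 inside EPB41L4A-AS1, with 46. The annotation used placed none inside GAS5. The counts of the host genes thus do not measure the snoRNAs released from them.

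The pattern of each gene over the 6 libraries was compared with that of every tested gene by the Euclidean distance between centred log2 CPM values. The genes nearest to GAS5 were YJEFN3 (distance 0.078), SLC25A5, the ADP/ATP carrier of the inner mitochondrial membrane (0.101), and PDGFC, a platelet-derived growth factor (0.105). Another host of the 9 was among the 100 nearest genes for SNHG6 alone, where SNHG16 ranked 88th at a distance of 0.298. For GAS5 the nearest other host was SNHG1, at rank 1365, and for SNHG15 it was also SNHG1, at rank 3801.

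The lists of other genes of the same biology are to be read against the shares of all genes tested, 38.2% higher and 39.8% lower in ZM11-kd1 and 36.5% higher and 36.9% lower in ZM11-kd2, and against a median of -0.03 in both. Of 12 further noncoding snoRNA hosts tested, 4 rose and 5 fell in ZM11-kd1 and 2 rose and 5 fell in ZM11-kd2, with median log2 fold changes of -0.04 and -0.05. Those that rose in ZM11-kd1 numbered 2 with the correction for GC content and median length. SNHG26 fell in both (-2.65, adjusted p = 1.99e-10, and -2.99, adjusted p = 1.22e-10), as did SNHG29 (-0.55, adjusted p = 3.12e-07, and -1.77, adjusted p = 3.37e-12), and SNHG11 rose in both (1.20, adjusted p = 5.33e-08, and 0.57, adjusted p = 0.000196). Of 43 protein-coding hosts tested, 24 rose and 15 fell in ZM11-kd1, while 10 rose and 22 fell in ZM11-kd2 (median 0.33 and -0.16). HSPA8, the constitutive heat shock cognate chaperone, rose in both (0.86 and 1.15), and so did the ribosomal protein gene RPS13 (1.59 and 0.40). By the mean of both knockdowns, the largest falls in this list among genes that fell in both were those of EIF4A1 (-2.89 and -1.98) and PPAN (-2.04 and -0.78), which share 2187 and 1374 exon bases with a gene on the same strand, so their counts are uncertain.

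Of 20 genes for proteins that assemble snoRNAs into particles, 7 rose and 9 fell in ZM11-kd1, near the shares of all genes, and 10 rose and 7 fell in ZM11-kd2 (median log2 fold change -0.08 and 0.11). Those that fell in ZM11-kd1 numbered 14 with library totals alone. SNU13, a core protein of box C/D particles, rose in both (log2 fold change 1.49, adjusted p = 1.73e-11, and 1.27, adjusted p = 1.62e-10), and NOP10, a core protein of box H/ACA particles, did too (1.47, adjusted p = 7.19e-11, and 0.79, adjusted p = 1.02e-07). The assembly factors NOPCHAP1 (-1.18 and -1.13) and SHQ1 (-1.51 and -0.36) fell in both.

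Of 23 genes for factors of nonsense-mediated decay, the pathway that degrades spliced host RNAs, 9 rose and 13 fell in ZM11-kd1 and 8 rose and 6 fell in ZM11-kd2 (median -0.22 and 0.01). The number that fell in ZM11-kd2 was 12 with library totals alone. EIF4A3, a core subunit of the exon junction complex, rose in both (log2 fold change 1.55, adjusted p = 8.29e-12, and 1.02, adjusted p = 1.02e-09), as did the cap-binding subunit NCBP2 (0.90 and 1.25). SMG1, the kinase that phosphorylates UPF1, fell in both (-1.39, adjusted p = 5.3e-11, and -0.72, adjusted p = 7.01e-08), and so did the decapping enzyme DCP2 (-0.84 and -0.66).

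Among 14 TOP messenger RNAs other than those of ribosomal proteins, 8 rose and 5 fell in ZM11-kd1 and 4 rose and 6 fell in ZM11-kd2 (median 0.20 and -0.06). With library totals alone 5 rose and 8 fell in ZM11-kd1. The translation initiation factor subunits EIF3H (log2 fold change 1.02 and 0.65) and EIF3E (0.65 and 0.48) rose in both. EIF4B (-0.81 and -1.46) and HNRNPA1 (-1.17, adjusted p = 6.37e-11, and -0.94, adjusted p = 9.99e-10) fell in both. Of 18 genes of mTORC1 and the control of TOP translation, 10 rose and 6 fell in ZM11-kd1 and 10 rose and 5 fell in ZM11-kd2 (median 0.35 and 0.25). The kinase gene MTOR fell in both (-1.61, adjusted p = 6.2e-11, and -0.84, adjusted p = 7.01e-08), as did DEPTOR (-0.89 and -1.41), an inhibitor of that kinase, whereas its activator RHEB (1.18 and 0.98) and the translation repressor EIF4EBP2 (0.84 and 1.62) rose in both.

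**Figure D3:**
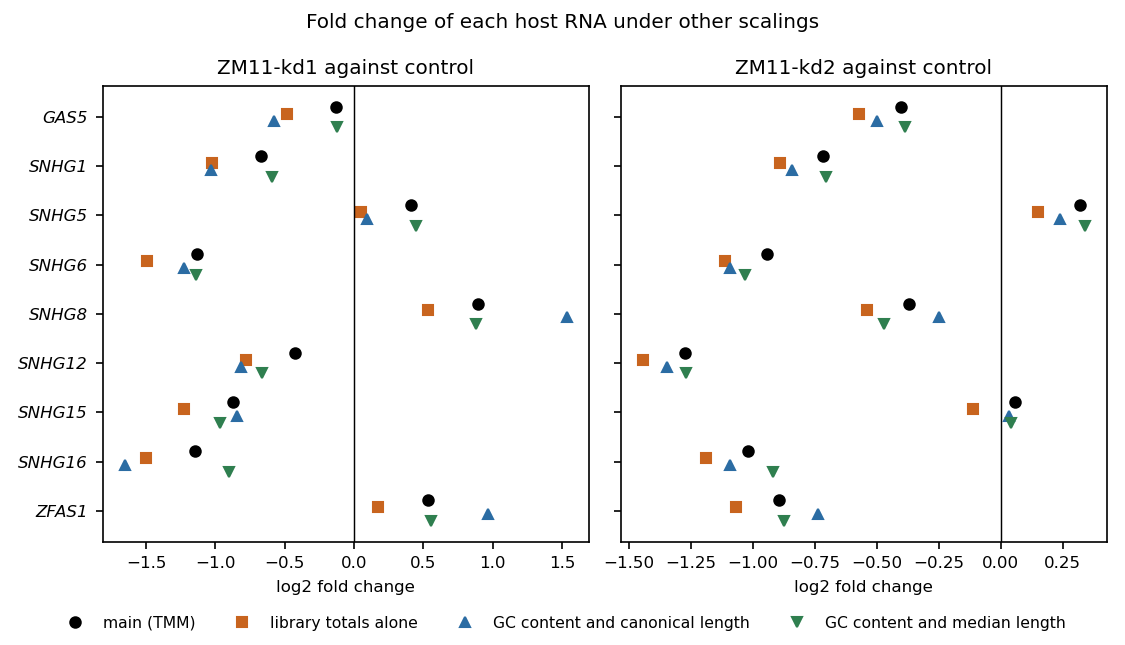
Log2 fold change against control of each host RNA with TMM factors, with library totals alone and with the corrections for GC content and canonical or median length, for ZM11-kd1 and ZM11-kd2. Under these 4 settings SNHG8 lay between 0.54 and 1.54 and GAS5 between -0.58 and -0.13 in ZM11-kd1.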

How the data were processed

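RNA-seq was made from 6 libraries of 22Rv1 cells, 2 in each of 3 groups named in the sample titles. The authors deposited a matrix of raw counts per gene symbol, without normalization. The submitters' processing notes name FastQC 0.11.9, AdapterRemoval, STAR 2.7.9a, SAMtools and HTSeq 0.13.5 and the build hg38. The annotation used for counting and its use of strand were not given in the sources used here. The extraction text names poly(A) isolation or rRNA removal without saying which was used.

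Counts were tested with edgeR 4.0.16 (R 4.3.3) in 1 fit of all 6 libraries with 3 residual degrees of freedom: filterByExpr, TMM factors, the quasi-likelihood F test and Benjamini-Hochberg adjustment over all genes tested, called at an adjusted p under 0.05. Standard errors were derived from the log2 value and its F statistic (their ratio after taking the root of F). The procedure was tested on simulated data. Alternatives were DESeq2 1.42.0, DESeq2 size factors, library totals alone, other filters, a replicate block, offsets for GC content and length, fits of only the groups compared and leaving out each library. The correction with median transcript length was added after seeing the data. For annotation, GENCODE 44 names were found for 32852 of the 35322 symbols directly and for a further 248 through RefSeq synonyms, leaving 2222.

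The genes followed and the gene lists were chosen with earlier results of these data known. All 9 measured host RNAs were named. In each other list, up to 2 rises and 2 falls were named, those with the largest mean log2 fold change of both knockdowns among genes with a mean log2 CPM of at least 1 called the same way in both. Some overlapping genes are not reported here.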

Additional observations from a re-analysis of the deposited data

Results flagged for a closer look

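For 5 of the 9 host RNAs the response differed between the 2 knockdowns of ZMYND11, by the direct test of ZM11-kd2 against ZM11-kd1 (edgeR quasi-likelihood test, adjusted p under 0.05, with the libraries of the 2 groups not overlapping). The log2 difference was -1.43 for ZFAS1, which was above control in both ZM11-kd1 libraries and below it in both ZM11-kd2 libraries. SNHG8 showed the same order, with a difference of -1.26. SNHG15 differed by 0.93, with both ZM11-kd1 libraries below control and the ZM11-kd2 libraries overlapping it. SNHG12 differed by -0.85, being below control in all 4 knockdown libraries and lower in ZM11-kd2. GAS5 differed by -0.27, the smallest of the 5 differences, and no longer passed with library totals alone (-0.09, adjusted p = 0.194) or with the correction for GC content and canonical length (0.08, adjusted p = 0.11). Of all genes tested, 68.8% passed the same test.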

How the results depend on the processing

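Across all alternatives, 401 of 432 host RNA values kept direction and side of the threshold, 17 came to pass it, 5 no longer passed it and 13 changed sign, 4 of these crossing the threshold as well. The cause of these changes was not tested. With library totals alone, SNHG15 in ZM11-kd2 was -0.11, and ZM11-kd2 against ZM11-kd1 gave 0.14 for SNHG1 and 0.10 for SNHG5; 1 host RNA was called higher in ZM11-kd1 and 3 were called higher in ZM11-kd2 against ZM11-kd1. With the correction for GC content and length, that last comparison gave 0.19 for SNHG1, 0.14 for SNHG5 and 0.078 for GAS5, with 3 called higher, and with median length -0.020 for SNHG16. Over the fits without 1 library, SNHG15 in ZM11-kd2 ranged from -0.059 (without ZM11-kd2 replicate 1) to 0.17 (without ZM11-kd2 replicate 2). In ZM11-kd2 against ZM11-kd1, SNHG1 ranged from -0.15 (without ZM11-kd2 replicate 1) to 0.050 (without ZM11-kd2 replicate 2) and SNHG5 from -0.25 (without ZM11-kd1 replicate 1) to 0.084 (without ZM11-kd1 replicate 2). Leaving out 1 library at a time, the host RNAs called higher numbered 1 to 3 in ZM11-kd1 and 0 to 1 in ZM11-kd2. The count fell to 1 in ZM11-kd1 without ZM11-kd1 replicate 2, rose to 3 without ZM11-kd1 replicate 1 and rose to 1 in ZM11-kd2 without ZM11-kd2 replicate 2.

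Same-numbered libraries showed no shared deviation across groups: the correlations over genes were 0.0062, -0.026 and -0.044. The labels do not say whether same-numbered libraries were prepared together. With the replicate block, the host RNAs passing the test numbered 7, 7 and 5 in ZM11-kd1, ZM11-kd2 and ZM11-kd2 against ZM11-kd1, as without it, and the block alone changed no call of a host RNA. The block with the correction for GC content and length gave 0.19 for SNHG1, 0.15 for SNHG5 and 0.077 for GAS5 in ZM11-kd2 against ZM11-kd1, with 3 called higher. Among the other lists, noncoding hosts called lower in ZM11-kd2 numbered 3 without a filter or with DESeq2, and those called higher in ZM11-kd1 numbered 2 with the correction for GC content and median length. With 2 libraries a group, precision is limited by the spread shared over the 3 groups, and for SNHG5 by its low count.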

Other observations

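EPB41L4A, the gene opposite EPB41L4A-AS1 with 2200 shared exon bases, was at 1.06 ± 0.146 CPM in control, 1.15 ± 0.289 in ZM11-kd1 and 1.74 ± 0.029 in ZM11-kd2 (SD, n = 2), and neither difference passed edgeR's test (log2 fold change 0.11, adjusted p = 0.778, and 0.72, adjusted p = 0.0523). TRNAU1AP, which meets SNHG12 tail to tail with 8 shared exon bases, rose in ZM11-kd1 (1.14, adjusted p = 9.68e-10) and fell in ZM11-kd2 (-0.24, adjusted p = 0.00683), while SNHG12 fell in both.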
